A study of Homo sapiens with 6 samples.

Results

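The BCL2 family decides at the mitochondrial outer membrane whether a cell starts apoptosis, and 10 of its genes were followed here in A375 cells treated with BMH-21. The members were taken from the deposited expression values by gene symbol, 10 of 25662 genes in all: the pro-apoptotic BAX, BAK1, BBC3, PMAIP1 and BCL2L11, the anti-apoptotic BCL2, BCL2L1, MCL1 and BCL2A1, and the atypical member BCL2L12. A375 is an established human melanoma line with an activated BRAF kinase. One group of 3 libraries came from A375 cells given 1 µM BMH-21, a DNA intercalator that blocks RNA polymerase I, for 24 hours. The other group of 3 came from A375 control cells, described in the treatment protocol as given DMSO, although the sample titles mark them as 0 hours. Both groups grew in the same medium with serum, and replicates are described as biological, without a statement of what separated them.

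In this family, BAX and BAK1 are the effectors that open pores in the outer membrane and let cytochrome c out. BCL2, BCL2L1 (its long product is BCL-xL), MCL1 and BCL2A1 hold the effectors in check. The BH3-only genes BBC3 (PUMA), PMAIP1 (NOXA) and BCL2L11 (BIM) encode short proteins that occupy the anti-apoptotic members or act on the effectors. BCL2 and BCL2A1 are known targets of the melanocyte factor MITF, and BIM is known to be held down by ERK signalling in melanoma. Transcript levels alone do not give the amounts or interactions of these proteins.

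The promoters of 3 members are shown because they hold matches to the elements searched that are tied to factors named here. Each is the stretch of 250 bases before a RefSeq start on GRCh38.p14, printed 5′ to 3′ on the strand of the gene, and 9 of the 10 members matched that set. Capitals mark the E-box CACGTG, bound by MYC and related factors, in BAX (chr19:48954625-48954874, plus strand) and BBC3 (chr19:47232668-47232917, minus strand). They mark TCATGTG, the core CATGTG of the MITF recognition sequence with a T before it in BCL2A1 (chr15:79971197-79971446, minus strand).
BAX: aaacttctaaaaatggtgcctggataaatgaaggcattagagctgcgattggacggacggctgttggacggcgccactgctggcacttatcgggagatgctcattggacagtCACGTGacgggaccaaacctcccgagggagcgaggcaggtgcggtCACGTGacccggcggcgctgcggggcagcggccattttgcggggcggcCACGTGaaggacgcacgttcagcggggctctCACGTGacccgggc
BBC3: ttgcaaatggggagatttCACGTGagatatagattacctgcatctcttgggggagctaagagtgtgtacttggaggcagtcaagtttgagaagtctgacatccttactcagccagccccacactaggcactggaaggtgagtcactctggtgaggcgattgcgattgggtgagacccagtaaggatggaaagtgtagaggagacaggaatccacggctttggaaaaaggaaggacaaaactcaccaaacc
BCL2A1: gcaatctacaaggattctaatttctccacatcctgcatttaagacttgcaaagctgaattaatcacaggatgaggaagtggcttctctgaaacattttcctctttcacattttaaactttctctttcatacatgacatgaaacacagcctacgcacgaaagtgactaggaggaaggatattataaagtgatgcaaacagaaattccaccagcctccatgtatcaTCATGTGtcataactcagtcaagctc

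Both strands were searched in all 11 matched windows of the 9 members, and in 35116 promoter windows of the same length. The shares of all windows given below are thus shares of promoters, not of the genome at large. The BAX window held 4 copies of CACGTG, which begin 138, 93, 45 and 14 bases before the start. At least 1 copy was present in 6.34% of all windows, and 4 or more in 5 windows, or 0.0142%. The BBC3 window held 1 copy, 232 bases before the start, and the windows of the other members searched held none. MCL1 had no window in the set and was not searched. The core CATGTG stood in 9.42% of all windows, and in those of BCL2A1 and BCL2L12 among the members. With a T before it, as in BCL2A1 at 26 bases before the start, it stood in 2.52%. These matches are letters in a window and were not tested as binding sites. The RefSeq starts used differ from the gene limits of GENCODE 29. There the BCL2A1 gene spans 79960889 to 79971446, so its whole window lies inside the gene. BAX begins there at 48954815, so its matches at 45 and 14 bases lie inside the gene.

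Values are TPM, a transcript level per length within a library, and changes are differences of log2(TPM + 1), BMH-21 minus control, from limma over the 12481 genes with a mean of at least 1 TPM. Genes whose adjusted p (Benjamini-Hochberg over all tested genes) was under 0.05 are called higher or lower. Of the 10 members, 9 passed that filter on low values, and BCL2 did not. Among those 9, 4 were called higher with BMH-21 (BAX, BBC3, BCL2L1 and MCL1), 2 lower (BCL2A1 and BCL2L12) and 3 were not called (BAK1, PMAIP1 and BCL2L11). Over all tested genes 23.3% were called higher and 12.9% lower, 36.2% together. The median log2 change of the 9 was 0.24, against 0.19 over all tested genes. With median-of-ratios scaling the median of all genes was 0.02 and that of the 9 members 0.05, with 4 and 2 members called again. Relative to the median of all tested genes, the log2 change was 1.58 for BBC3, 1.39 for BAX, 0.40 for BCL2L1, 0.35 for MCL1 and 0.06 for BAK1. The groups did not overlap in 8 of the 10 members, 5 higher and 3 lower, compared with 52.3% of tested genes, 35.0% higher and 17.3% lower.

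The libraries correlated at 0.980 to 0.992 within a group and 0.934 to 0.949 between groups (Pearson's r across tested genes). The melanoma label was checked on 9 lineage markers: SOX10 averaged 654 ± 52.4 TPM with BMH-21 and 540 ± 126 TPM in controls, and S100B averaged 111 ± 0.724 TPM with BMH-21 and 77.5 ± 2.71 TPM in controls (SD, n = 3 each), while the pigment gene MLANA was at 0 in all 6 libraries and TYR, DCT and TYRP1 were below 0.5 TPM. Of 13 markers of other cell types 12 were in the deposited values. Their summed level ran from 25.8 to 30.2 TPM with BMH-21 and from 11.6 to 12.1 TPM in controls. The fibroblast gene DCN was called higher (10.6 ± 1.37 TPM with BMH-21 and 0.597 ± 0.263 TPM in controls). So was the lysozyme gene LYZ (9.39 ± 1.23 TPM with BMH-21 and 2.69 ± 0.106 TPM in controls). DCN was under 1 TPM in every control, so it passed the filter only through the BMH-21 libraries. The keratinocyte gene KRT14 averaged 3.67 TPM with BMH-21 and 3.54 TPM in controls, and was not called. The fibroblast gene PDGFRB averaged 2.27 TPM with BMH-21 and 2.81 TPM in controls, and was not called. CD3E and KRT5 were below 0.3 TPM. The part of these markers in the results on the family was not tested. In bulk RNA, fewer cells of a type and less RNA per cell cannot be told apart.

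**Figure D1:**
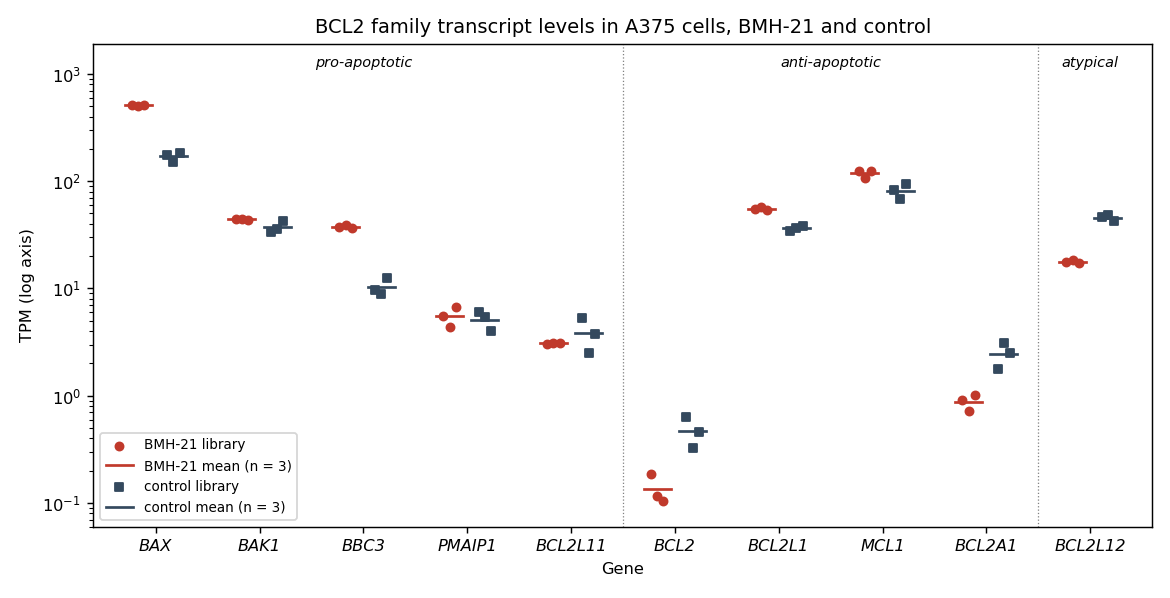
TPM (log axis) of the 10 members in each library, with BMH-21 as red circles left of control as dark squares and a line at each group's mean (n = 3). BAX, BBC3, BCL2L1 and MCL1 sit higher with BMH-21, BCL2, BCL2A1 and BCL2L12 sit lower, and the libraries of PMAIP1 and BCL2L11 overlap.

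BAX, the effector gene with the highest level in both groups, rose. It was at 512, 502 and 512 TPM in the BMH-21 libraries and at 173, 152 and 184 TPM in the control libraries, a ratio of means of 2.99. All BMH-21 libraries stood within a narrow band far above the highest control, and the log2 change was 1.58 ± 0.09 (SE, adjusted p = 1.34e-05), larger than that of 98.6% of tested genes. BAX (ENSG00000087088.19) lies on chromosome 19 from 48954815 to 48961798 in GRCh38 (GENCODE 29, as for all positions of genes given here).

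BAK1, the other effector gene, did not pass the test. It was at 44.6, 44.1 and 43.6 TPM with BMH-21 and at 33.4, 36.2 and 42.1 TPM in controls. The groups touched closely at control replicate 3 without overlapping, and the log2 change was 0.24 ± 0.11 (adjusted p = 0.112). Without control replicate 3 the log2 change was 0.33 (adjusted p = 0.0472), while median-of-ratios scaling gave 0.05 (adjusted p = 0.770). The level of BAX over that of BAK1 was 11.5 ± 0.184 with BMH-21 and 4.59 ± 0.530 in controls (SD, n = 3 each).

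Of the 3 BH3-only members, BBC3 rose and PMAIP1 and BCL2L11 were not called. BBC3 was at 37.2, 39.0 and 36.3 TPM with BMH-21 and at 9.76, 8.97 and 12.4 TPM in controls. No control library came near the BMH-21 range, and the ratio of means was 3.62 (log2 change 1.77 ± 0.13, adjusted p = 5.30e-05), the highest change among the tested members. Its gene (ENSG00000105327.17) lies on chromosome 19 from 47220822 to 47232766, on the minus strand.

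PMAIP1 was at 5.48, 4.36 and 6.65 TPM with BMH-21 and at 5.98, 5.42 and 4.001 TPM in controls. The libraries of both groups were interleaved (log2 change 0.08 ± 0.20, adjusted p = 0.759), and the sign depended on the scaling and on single libraries. BCL2L11 was at 3.01, 3.10 and 3.12 TPM with BMH-21 and at 5.25, 2.50 and 3.75 TPM in controls. The BMH-21 libraries were close together inside the wide range of the controls (log2 change -0.21 ± 0.22, adjusted p = 0.478). Without control replicate 1, its highest library, the log2 change was -0.00071 (adjusted p = 0.998), and without control replicate 2, its lowest, it was -0.42 (adjusted p = 0.0776). BBC3 thus made up 81.4 ± 2.57% of the summed TPM of the BH3-only members with BMH-21 and 53.7 ± 7.53% in controls (SD, n = 3 each). That sum leaves out BH3-only genes that are not members, so the share is not one of all BH3-only transcripts. Among those left out, BAD averaged 73.7 TPM with BMH-21 and 99.9 TPM in controls, BID 28.3 and 39.3 TPM, and BMF 4.62 and 1.84 TPM.

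On the anti-apoptotic side, both of the abundant genes rose. MCL1, which encodes a short-lived protein and has the highest level of these genes, was at 123, 107 and 124 TPM with BMH-21 and at 83.0, 67.5 and 93.8 TPM in controls. The groups did not overlap (ratio of means 1.45, log2 change 0.54 ± 0.13, adjusted p = 0.0146). MCL1 no longer passed when BMH-21 replicate 1 (adjusted p = 0.0597) or replicate 3 (adjusted p = 0.0563) was left out. BCL2L1 was at 55.0, 57.9 and 53.3 TPM with BMH-21 and at 34.5, 36.7 and 38.5 TPM in controls. Every BMH-21 library stood well above every control (ratio of means 1.52, log2 change 0.59 ± 0.09, adjusted p = 0.00203).

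The anti-apoptotic genes with low levels stood lower with BMH-21. BCL2A1, whose protein BFL1 guards against apoptosis in melanocytic cells, was at 0.912, 0.723 and 1.01 TPM with BMH-21 and at 1.77, 3.12 and 2.50 TPM in controls. It fell, with no overlap and a ratio of means of 0.358 (log2 change -0.86 ± 0.18, adjusted p = 0.00809, and -1.36 with a pseudocount of 0.1). BCL2A1 averaged 0.882 TPM with BMH-21 and 2.46 TPM in controls, so it passed the filter of 1 TPM only through the controls. Its call is limited by that. BCL2, the founding gene of the family, was at 0.187, 0.116 and 0.104 TPM with BMH-21 and at 0.629, 0.323 and 0.458 TPM in controls. Those levels were below the filter, so BCL2 was not tested, and all BMH-21 values stood under the lowest control. With every gene above 0 in at least 1 library in the fit, its log2 change was -0.37 (adjusted p = 0.0310), a difference that was -0.60 with a pseudocount of 0.5 and -1.26 with 0.1. How many reads lie behind levels this low is unknown from TPM.

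BCL2L12, an atypical member studied for its action on caspases in glioma cells, fell. It was at 17.6, 18.4 and 17.1 TPM with BMH-21 and at 46.1, 48.7 and 42.7 TPM in controls. The groups were far apart, with a ratio of means of 0.386 (log2 change -1.32 ± 0.10, adjusted p = 5.14e-05), and 2.65% of tested genes had a lower change. Its log2 change was the lowest of the tested members on the log2(TPM + 1) scale, whereas in the ratio of means BCL2A1 was lower. BCL2L12 (ENSG00000126453.9, chromosome 19, 49665142 to 49673916) shares 734 of its 2216 exon bases, 33.1%, with IRF3 on the opposite strand. IRF3, an interferon regulatory factor, averaged higher with BMH-21, at 102, 90.0 and 107 TPM, against 63.3, 64.7 and 91.9 TPM in controls (log2 change 0.45, adjusted p = 0.0484, a call kept in 6 of 17 alternatives). Whether reads were assigned by strand is not given in the sources used here.

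Similar limits hold for other members. BCL2L1 shares 1424 of its 3314 exon bases, 43.0%, with the antisense gene ABALON, which was at 5.44, 5.32 and 5.20 TPM with BMH-21 and at 4.32, 3.04 and 3.54 TPM in controls. BCL2L11 shares 10.9% of its exon bases with the antisense MIR4435-2HG, not analysed here. One value per gene does not separate isoforms, of which GENCODE lists 25 transcripts for BCL2L11, 9 for BCL2L1 and 4 for MCL1. For BCL2L1 and MCL1 the long products are anti-apoptotic and short splice products pro-apoptotic, so their rise is not known to be that of the long form. Processed pseudogenes of BAK1 and BCL2L12 are annotated and may share reads with them.

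**Figure D2:**
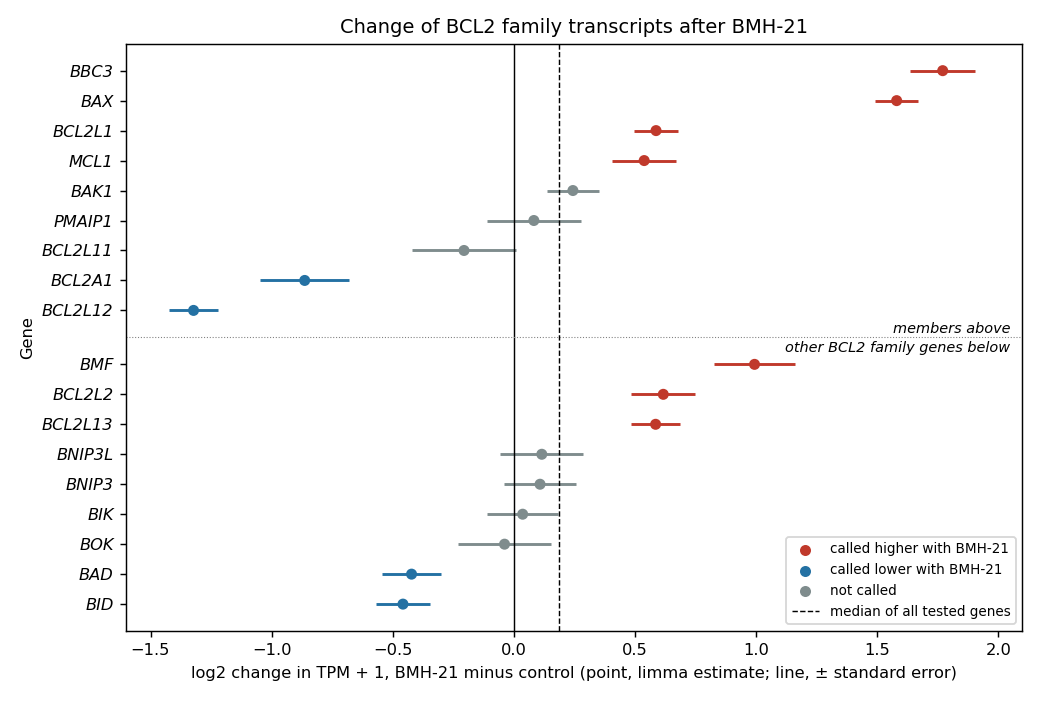
Log2 change in TPM + 1 with its standard error for the 9 tested members (upper block) and 9 tested genes of the wider BCL2 family (lower block), with a dashed line at the median of all tested genes, 0.19. BBC3 and BAX lie farthest to the right and BCL2L12 farthest to the left, and BCL2, below the filter, is not drawn.

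A ratio of levels within a library does not depend on how that library was scaled. BAX over BCL2L1 was 9.30, 8.67 and 9.61 with BMH-21 and 5.02, 4.15 and 4.78 in controls, 1.98-fold higher in the geometric mean. BAX over MCL1 was 4.15, 4.71 and 4.14 with BMH-21 and 2.09, 2.26 and 1.96 in controls, 2.06-fold higher. Although both anti-apoptotic transcripts rose, BAX thus stood higher against each of them in every BMH-21 library than in any control. Against the rare genes the shift was larger, at 8.24-fold over BCL2A1 (507 to 694 with BMH-21, 48.9 to 98.1 in controls) and 10.4-fold over BCL2, where the low denominators make the size uncertain.

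BBC3 remained below BCL2L1 and MCL1 in level. BBC3 over BCL2L1 ran from 0.673 to 0.682 with BMH-21 and from 0.245 to 0.322 in controls, 2.41-fold higher. Over MCL1 it ran from 0.294 to 0.366 with BMH-21 and from 0.118 to 0.133 in controls, 2.50-fold higher. The pairs without BAX or BBC3 were mixed. BAK1 over BCL2L1 ran from 0.760 to 0.818 with BMH-21 and from 0.967 to 1.09 in controls, so BAK1 was at about the level of BCL2L1 in controls and below it with BMH-21. BCL2L11 was lower with BMH-21 against both BCL2L1 (0.554-fold) and MCL1 (0.576-fold), without overlap, and PMAIP1 overlapped against both. Of all 20 pairs of a pro-apoptotic over an anti-apoptotic member, 14 were higher with BMH-21 without overlap, 3 lower and 3 overlapped. Every pair over BCL2 or BCL2A1 was higher, also those of PMAIP1 and BCL2L11, which were not called. These denominators averaged only 0.135 TPM (BCL2) and 0.882 TPM (BCL2A1) with BMH-21. Over the abundant BCL2L1 and MCL1, only the pairs with BAX or BBC3 were higher. The 20 pairs share their genes and libraries and are given as a description.

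**Figure D3:**
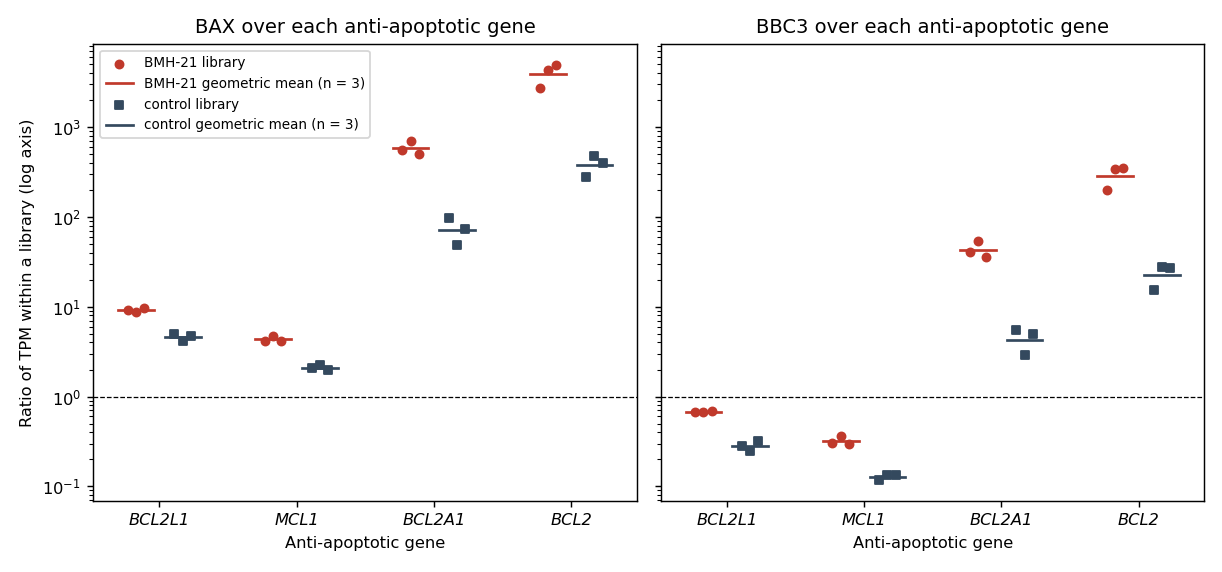
Ratio of TPM within each library (log axis) of BAX (left) and BBC3 (right) over each anti-apoptotic member, with BMH-21 as red circles left of control as dark squares and a line at each geometric mean (n = 3). BMH-21 libraries lie above the controls in all 8 pairs shown, and BBC3 stays below a ratio of 1 against BCL2L1 and MCL1.

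The summed levels show how much of the balance among these members is BAX. The 5 pro-apoptotic members summed to 599 ± 5.34 TPM with BMH-21 and 226 ± 20.4 TPM in controls, and the 4 anti-apoptotic members to 174 ± 7.75 TPM with BMH-21 and 121 ± 13.8 TPM in controls (SD, n = 3 each). The pro-apoptotic sum over the anti-apoptotic one was 3.44 ± 0.125 with BMH-21 and 1.88 ± 0.0488 in controls. BAX made up 84.7 to 85.1% of the pro-apoptotic sum with BMH-21 and 74.2 to 76.1% in controls. With BAX left out of the sum, the ratio was 0.518 ± 0.0253 with BMH-21 and 0.469 ± 0.0212 in controls. These sums hold the chosen members only. Outside them, the BH3-only BAD averaged 73.7 TPM with BMH-21 and 99.9 TPM in controls, and BID 28.3 and 39.3 TPM. The BH3-only BMF averaged 4.62 and 1.84 TPM, and the anti-apoptotic BCL2L2 32.2 and 20.8 TPM. The ratio without BAX thus depends on which genes are included, and it was not computed over the wider family. MCL1 made up 67.6 ± 2.69% of the anti-apoptotic sum with BMH-21 and 67.1 ± 3.77% in controls, so the make-up of that side was close in both groups.

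**Figure D4:**
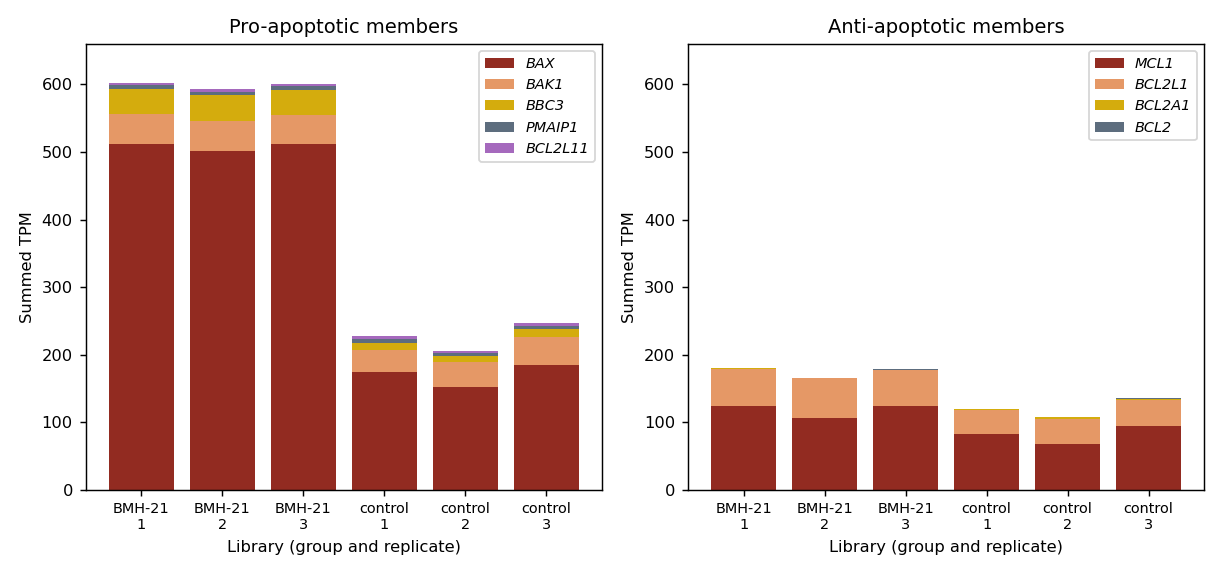
Summed TPM of the pro-apoptotic members (left) and the anti-apoptotic members (right) in each library, stacked by gene on the same scale, BMH-21 libraries left of controls. BAX fills most of every pro-apoptotic bar, and MCL1 and BCL2L1 fill nearly all of every anti-apoptotic bar.

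The order of levels changed little at its top and bottom. With BMH-21 it ran BAX, MCL1, BCL2L1, BAK1, BBC3, BCL2L12, PMAIP1, BCL2L11, BCL2A1 and BCL2, and no neighbours overlapped in their library ranges. In controls it ran BAX, MCL1, BCL2L12, BAK1, BCL2L1, BBC3, PMAIP1, BCL2L11, BCL2A1 and BCL2, with overlapping ranges between BAK1 and BCL2L1, PMAIP1 and BCL2L11, and BCL2L11 and BCL2A1. BCL2L12 was thus the third member in controls and the sixth with BMH-21. The libraries of a group were closer together with BMH-21, with a median coefficient of variation over members of 3.97%, than in controls, at 16.8%. A lower coefficient with BMH-21 was seen in 8 of the 10 members, and in 71.3% of all tested genes.

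Other genes of the wider family were called in both directions. Of 13 further BCL2 family genes, 9 passed the filter, 3 were called higher and 2 lower, with a median log2 change of 0.11. Over all tested genes 23.3% were called higher and 12.9% lower, with a median of 0.19. BMF, a BH3-only gene whose protein is known to bind the cytoskeleton, rose to 4.62 ± 0.338 TPM with BMH-21, against 1.84 ± 0.455 TPM in controls (log2 change 0.99 ± 0.17, adjusted p = 0.00294). BCL2L2, the anti-apoptotic BCL-w gene, averaged 32.2 ± 2.37 TPM with BMH-21 and 20.8 ± 3.12 TPM in controls (log2 change 0.62 ± 0.13, adjusted p = 0.00836). BCL2L13, a mitochondrial member, averaged 51.4 ± 2.75 TPM with BMH-21 and 34.0 ± 2.94 TPM in controls (adjusted p = 0.00343, or 0.0513 once scaled by median of ratios).

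The called falls were in BH3-only genes. BID, which links death receptors to the mitochondrial pathway, fell to 28.3 ± 2.31 TPM, against 39.3 ± 3.34 TPM in controls (log2 change -0.46 ± 0.11, adjusted p = 0.0145). BAD, whose protein binds BCL-xL when dephosphorylated, fell to 73.7 ± 3.07 TPM, against 99.9 ± 15.4 TPM in controls (log2 change -0.42 ± 0.12, adjusted p = 0.0277). BAD passed in 8 of 17 alternatives. It missed the threshold when any 1 of the BMH-21 libraries, control replicate 2 or control replicate 3 was left out (adjusted p between 0.0540 and 0.0957). BOK, BIK, BNIP3 and BNIP3L were not called (adjusted p from 0.587 to 0.888). HRK was below 0.4 TPM and BCL2L15 below 1 TPM in every library, BCL2L14 was above 0 in 1 library and BCL2L10 was at 0 in all 6.

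Of 12 genes of the mitochondrial pathway below BAX and BAK1, 3 were called higher, close to the 23.3% of all tested genes. In this list 1 gene was called lower, beside 12.9% of all tested genes (median 0.20). The higher count was 0 with median-of-ratios scaling, and it was 0 when BMH-21 replicate 2, BMH-21 replicate 3 or control replicate 3 was left out and 1 when BMH-21 replicate 1 was. The lower count was 0 without BMH-21 replicate 1 or 3. AIFM1, a flavoprotein of the intermembrane space, averaged 49.3 ± 4.39 TPM with BMH-21 and 35.4 ± 5.29 TPM in controls (adjusted p = 0.0229). DFFA, the inhibitor of the caspase-activated nuclease, averaged 45.0 ± 3.15 TPM with BMH-21 and 61.7 ± 5.02 TPM in controls (adjusted p = 0.0108). DIABLO, the gene of this list with the highest level, was at 104 ± 4.62 TPM with BMH-21 and 91.6 ± 2.23 TPM in controls (adjusted p = 0.109). AIFM1 missed the threshold when BMH-21 replicate 2, BMH-21 replicate 3 or control replicate 3 was left out (adjusted p between 0.0659 and 0.0694), and with median-of-ratios scaling (adjusted p = 0.105). DFFA missed it when BMH-21 replicate 1 (adjusted p = 0.0522) or 3 (adjusted p = 0.0551) was left out.

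Of 7 inhibitor of apoptosis genes, 4 were tested, 1 rose and 1 fell, beside 23.3% and 12.9% of all tested genes. BIRC2, which encodes cIAP1, averaged 11.2 ± 1.92 TPM with BMH-21 and 4.90 ± 2.29 TPM in controls (log2 change 1.13, adjusted p = 0.0231). Leaving out BMH-21 replicate 1 gave BIRC2 an adjusted p of 0.0792, and leaving out control replicate 2 a log2 change of 0.75. BIRC5, the survivin gene of dividing cells, fell to 3.24 ± 1.85 TPM, against 100.4 ± 2.72 TPM in controls (log2 change -4.68 ± 0.29, adjusted p = 1.99e-05). Among 11 genes of protein turnover and membrane partners, 3 were called higher and 1 lower (median 0.09), near the same shares of all tested genes. BTRC, a ubiquitin ligase subunit, averaged 8.88 ± 1.23 TPM with BMH-21 and 4.85 ± 0.743 TPM in controls (adjusted p = 0.00853), and TMBIM6, the Bax inhibitor 1 gene, 731 ± 21.99 TPM with BMH-21 and 560.4 ± 47.2 TPM in controls (adjusted p = 0.0108, or 0.343 once scaled by median of ratios). BAG1, a co-chaperone that binds BCL2, averaged 47.2 ± 2.77 TPM with BMH-21 and 60.2 ± 4.39 TPM in controls (adjusted p = 0.0260), and missed the threshold when BMH-21 replicate 1, BMH-21 replicate 3 or control replicate 1 was left out (adjusted p between 0.0627 and 0.127).

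Of 14 transcription factor genes known to act on the family, 13 were tested, 2 were called higher and 4 lower (median -0.06). Over all tested genes the shares were 23.3% higher and 12.9% lower. The higher count was 1 with median-of-ratios scaling or when any 1 of the BMH-21 libraries was left out, and 3 when control replicate 3 was. FOXO4 averaged 13.2 ± 0.781 TPM with BMH-21 and 8.46 ± 0.672 TPM in controls (adjusted p = 0.00869). E2F1, an activator of S phase genes, fell to 1.56 ± 0.698 TPM, against 38.2 ± 4.06 TPM in controls (adjusted p = 1.10e-05), and ATF4, the highest, was at 189.9 ± 1.98 TPM with BMH-21 and 205 ± 15.9 TPM in controls (adjusted p = 0.358, or 0.0329 and lower once scaled by median of ratios). MITF and MYC are added here after their values were seen, because the promoter elements shown above are those of such factors. MITF was at 1.29 ± 0.0211 TPM with BMH-21 and 1.42 ± 0.423 TPM in controls (adjusted p = 0.796). MYC was at 8.38 ± 0.188 TPM with BMH-21 and 12.5 ± 2.88 TPM in controls, without overlap (log2 change -0.50 ± 0.17, adjusted p = 0.0485). MYC was called in 10 of 17 alternatives, and not when any 1 of the BMH-21 libraries, control replicate 1 or control replicate 3 was left out (adjusted p between 0.0829 and 0.130).

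Over the 6 libraries the genes most like BBC3 in log2(TPM + 1) were PPP1R3F, NIT1 and MVP, and those most like BCL2L12 were RPL3, RFTN1 and ILF2 (Pearson's r from 0.998 to 1.00). With the groups so far apart, 172 genes exceeded an r of 0.99 with BBC3 and 140 with BCL2L12, so these genes are among many that separate the groups.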

How the data were processed

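RNA was sequenced from 3 BMH-21 and 3 control libraries of A375 cells. Per the labels' protocols, ribosomal RNA was depleted and random hexamers were used, while the molecule field names polyadenylated RNA. The authors deposited TPM per gene symbol, and the submitters' processing notes name STAR, Salmon and GRCh38, with versions, settings and annotation not given in the sources used here. Columns summed to between 989360 and 990760, which keeps no depth, so no counting interval is given.

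From these values, log2(TPM + 1) was fitted with limma 3.58.1 in R 4.3.3 (linear model, variance trend, two-sided, Benjamini-Hochberg) over 12481 genes with a mean of at least 1 TPM, and calls were made at an adjusted p under 0.05. The model was checked on simulated data of independent normal values with the same spread in both groups. The unequal spread of the real groups was not covered by that check. The p-values set the group difference against the spread between libraries of a group, estimated with information from all tested genes. What separated the replicates is not stated. Members and lists were chosen with earlier results of these data known. All members and the wider family are named. From each other list, the called gene that rose most, the one that fell most and the one with the highest level are named. For the largest member rise and fall, the 3 most correlated genes are also named. Marker, overlapping, MITF and MYC values lie outside that rule, and some items are not reported here. Genes were placed with GENCODE 29, and promoters are from RefSeq. Alternatives covered the pseudocount, filter, scaling, variance model, replicate block and left-out libraries. Following BCL2, MITF and MYC under every setting, and 20 ratio pairs in place of 4, were chosen after seeing the data.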

Additional observations from a re-analysis of the deposited data

How the results depend on the processing

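Of 151 log2 changes of the 9 tested members under alternatives, 144 kept their direction and their side of the threshold, and BAX, BBC3, BCL2L1, BCL2L12 and BCL2A1 did so in every alternative in which they were tested. The direction of PMAIP1, never called, reversed with median-of-ratios scaling (-0.084), under quantile normalization (-0.082) and without BMH-21 replicate 3 (-0.043) or control replicate 3 (-0.057), in a range of -0.057 to 0.21 over left-out libraries. The call of MCL1 was lost without BMH-21 replicate 1 or 3, and BAK1 was called without control replicate 3, as given above. With a mean of at least 5 TPM required, 1 member was called lower, since BCL2A1 and BCL2L11 were no longer tested.

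The count of genes called higher, 2908, was 1879 with median-of-ratios scaling and ran from 1671 to 2838 over single left-out libraries (lowest without BMH-21 replicate 1, and 1731 without BMH-21 replicate 3). The count called lower, 1611, ran from 1125 to 1991 over them. Higher calls were 64.4% of all calls, 44.2% with median-of-ratios scaling and 51.3% with quantile normalization. With both number 2 libraries left out, 3625 genes were called higher and 2220 lower. Adding 1 to both TPM gave a log2 difference of 1.95 for BAX over BCL2, against 3.38, and 2.44 for BAX over BCL2A1, against 3.04, while the other BAX ratios moved by less than their spread.

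Same-numbered libraries did not deviate together (Pearson's r of -0.045, -0.34 and -0.078), and differently numbered ones ran from -0.31 to 0.33. Deviations from a mean of 3 libraries constrain one another, so these values cannot tell whether the numbers pair the samples. With the replicate block 2008 genes were called higher and 1215 lower, members stayed at 4 and 2, and BID (adjusted p = 0.0579), BAD (0.0723), AIFM1 (0.0708), DFFA (0.0510), BAG1 (0.0992), IRF3 (0.0502) and MYC (0.0838) were no longer called. The block left 0 called lower of the other BCL2 family genes, 0 called in either direction of the genes below BAX and BAK1, and 1 transcription factor gene called higher.

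Uncalled genes whose sign reversed over left-out libraries were BOK (-0.22 to 0.11), BIK (-0.0089 to 0.099), BNIP3 (-0.0097 to 0.22), BNIP3L (-0.033 to 0.22) and MITF (-0.20 to 0.060, positive without control replicate 3). Median-of-ratios scaling reversed BIK (-0.061), BNIP3 (-0.085), BNIP3L (-0.064) and DIABLO (-0.013), and quantile normalization BIK (-0.093) and BNIP3L (-0.050). The cause of these changes was not tested. Depth is unknown, so the counting error of the low levels cannot be given.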
